A study of Mus musculus with 1078 samples.

Results

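The cells described here carried the deposited label microglia in a single-cell RNA-seq study of mouse brain tumors. They were chosen by that label alone, which covered 89 of the 1078 cells in the series. Of these, 79 lay on 4 plates of CD45-positive cells, where they were 79 of 240 cells, and 10 lay on plates sorted for CD3. On the CD45-positive plates, the deposited clustering placed 51 of them in cluster 6 and 28 in cluster 11. The check of the label against its markers gave different results for the 2 clusters. Cluster 6 held genes of microglia and macrophages. By a score described below, microglia genes exceeded macrophage genes in 18 of its 51 cells. Cluster 11 lacked the defining genes of microglia in nearly all of its cells and held genes of neutrophils. The data go against the label for cluster 11, which is called here by its number.

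The tumors were GL261 gliomas, a line syngeneic to C57Bl/6, grown in the brains of male and female C57Bl/6 mice that were 6 to 8 wk old at the start. Control mice received PBS or IgG. Losartan, a blocker of the angiotensin II type I receptor, was given at 60 mg/kg per day for about 2 wk, with 1 wk of it before any antibody. Anti-PD1, an antibody against the PD1 checkpoint (clone RMP1-14), was given as 3 doses of 200 μg per mouse, 3 d apart, and another group received both drugs. All groups carried a tumor, and normal brain was not analysed here. Live single cells were sorted into 96-well plates and read with the full-length Smart-seq2 protocol. Each treatment was 1 plate of CD45-positive cells, and no label ties a cell to a mouse. A treatment therefore counts as 1 sample here, and treatment, mouse and plate cannot be told apart. No test was run, and SDs and intervals describe cells, which are not replicates of a treatment.

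Microglia are the resident macrophages of the brain. They arise early in development, are kept by signals through CSF1R, and are known by genes such as P2ry12 (a purine receptor that steers their processes), Tmem119 and Sall1. Monocyte-derived macrophages enter the brain from blood, share the complement C1q genes and Csf1r with microglia, and tend to carry Tgfbi, Ms4a7 and, soon after entry, the monocyte genes Ly6c2 and Ccr2. Neutrophils are short-lived granulocytes that respond to CXCR2 ligands and to G-CSF through CSF3R, and they are rich in the calcium-binding proteins S100a8 and S100a9.

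The gene pairs that separate the clusters are S100a8 with S100a9 on chromosome 3 and the C1q chain genes on chromosome 4. The 250 bases before the start of 4 of them are printed because these genes carry the contrast between the clusters. They come from RefSeq (GRCm38.p6) and are written 5′ to 3′ on the strand of the gene. Capitals mark every GAGGAA, the core bound by PU.1-type factors, and every TTGCNNAA, a C/EBP-type motif, on either strand. No mark of one motif overlaps the other.
S100a8, chr3:90668821-90669070, plus strand: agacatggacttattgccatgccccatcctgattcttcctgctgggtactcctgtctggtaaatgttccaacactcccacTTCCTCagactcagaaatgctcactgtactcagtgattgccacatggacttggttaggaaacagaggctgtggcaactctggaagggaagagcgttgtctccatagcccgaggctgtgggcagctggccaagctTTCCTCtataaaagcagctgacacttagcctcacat
S100a9, chr3:90695722-90695971, minus strand: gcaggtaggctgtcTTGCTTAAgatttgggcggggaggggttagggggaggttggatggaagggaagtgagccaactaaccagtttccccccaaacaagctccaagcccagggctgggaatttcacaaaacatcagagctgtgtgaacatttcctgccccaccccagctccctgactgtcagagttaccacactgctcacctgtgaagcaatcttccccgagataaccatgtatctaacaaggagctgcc
C1qb, chr4:136886201-136886450, minus strand: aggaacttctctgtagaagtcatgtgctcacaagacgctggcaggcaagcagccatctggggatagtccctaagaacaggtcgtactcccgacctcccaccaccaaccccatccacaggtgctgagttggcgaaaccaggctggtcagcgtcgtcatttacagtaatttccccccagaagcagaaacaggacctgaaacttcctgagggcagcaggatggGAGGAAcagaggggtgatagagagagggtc
C1qc, chr4:136892915-136893164, minus strand: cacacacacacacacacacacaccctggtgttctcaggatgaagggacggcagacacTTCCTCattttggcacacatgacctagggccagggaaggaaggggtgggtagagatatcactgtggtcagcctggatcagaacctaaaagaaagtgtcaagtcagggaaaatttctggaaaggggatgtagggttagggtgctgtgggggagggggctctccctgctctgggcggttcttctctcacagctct
The S100a8 window held 2 matches to GAGGAA, and the C1qb and C1qc windows held 1 each. The S100a9 window held 1 match to TTGCNNAA. Over all 32851 promoters of this length, 23.3% held GAGGAA and 9.56% held TTGCNNAA. Of the 19 matched promoters of the 21 neutrophil genes used here, 9 (47.4%) held GAGGAA and 5 (26.3%) held TTGCNNAA. Of the 16 matched promoters of the 18 genes shared by microglia and macrophages, 9 (56.2%) held GAGGAA and 1 (6.25%) held TTGCNNAA. Of 14 matched promoters of the 15 microglia genes, 3 (21.4%) and 2 (14.3%) did. A match is a run of letters and not a measured binding site.

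Levels are given in RSEM's expected counts per 100000 of the cell's total (TP100K). A gene is called clearly present in a cell at 10 TP100K or more, since low values above 0 also occurred in cells that should lack a gene. For example, Cxcr2 was above 0 in 84 of 88 cells labelled T, NK or B but clearly present in 9 of them. The totals of the 79 cells ran from 41186 to 1808024. Cluster 6 had a median total of 411135 and a median of 3501 genes above 0, against 159444 and 1846 in cluster 11. After thinning of every cell to 80000 counts, which left out 4 cells of cluster 11, the medians were 2888 genes in cluster 6 and 1567 in cluster 11. Cluster 11 thus held fewer genes at equal depth too. Of general leukocyte genes, Ptprc (CD45) was clearly present in 43 of 51 and 24 of 28 cells, and Fcer1g in 50 of 51 and 28 of 28. Genes of other cell types were low. In cluster 6 the summed level of a cell reached at most 250.2 for the 12 lymphocyte genes, 56.1 for 7 genes of tumor and glial cells, 30.6 for 7 endothelial genes and 59.7 for 6 oligodendrocyte genes. In cluster 11 the same sums reached 7.77, 0.817, 0 and 389.3, the last of them carried by the myelin gene Mbp in 11 cells.

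The C1q genes, shared by microglia and macrophages, were clearly present in most cells of cluster 6. The microglia genes P2ry12 and Tmem119 were so in a minority of them. All were clearly present in few or no cells of cluster 11. C1qb, a chain of the complement protein C1q, had a median of 388.3 TP100K in cluster 6 (0 to 1563.0), was clearly present in 45 of 51 cells, and had a mean of 369.7 ± 292.3 (SD over cells). In cluster 11 it was clearly present in 3 of 28 cells, with a mean of 4.41. C1qa gave 41 of 51 and 3 of 28 cells, with means of 213.2 and 3.28. P2ry12 was clearly present in 22 of 51 cells of cluster 6 (median 4.71, mean 129.2 ± 243.9) and in 2 of 28 of cluster 11 (mean 5.37). Cx3cr1, the fractalkine receptor, was clearly present in 34 of 51 cells of cluster 6 (median 41.5). In cluster 11 no cell reached 10 TP100K, the highest being 4.86. Tmem119 was clearly present in 19 cells of cluster 6 and had no count in any cell of cluster 11. The wide spread of P2ry12 and Tmem119 inside cluster 6, in contrast to C1qb, is described with the spread of that cluster.

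The neutrophil genes were the reverse. S100a9 was clearly present in 21 of 28 cells of cluster 11, with a median of 145.7 TP100K, a highest value of 2676 and a mean of 300.6 ± 515.7. In cluster 6 it was above 0 in 1 of 51 cells, at 2.10. S100a8 was clearly present in 23 of 28 cells (median 121.5, highest 2055) and in none of 51. Csf3r, the receptor for G-CSF, was clearly present in 25 of 28 cells (median 349.5, mean 350.5 ± 244.1), and in 23 of 51 cells of cluster 6 at a mean of 25.1. Cxcr2, a chemokine receptor of neutrophils, was clearly present in 23 of 28 cells and in 1 of 51, with means of 172.5 and 3.58. Hdc, which makes histamine, was clearly present in 25 of 28 cells and 0 of 51. The counts of Cxcr2 and Hdc in cluster 11 include 3 cells with basophil genes, described below. Without them, 20 of 25 cells carried Cxcr2 clearly and 22 of 25 carried Hdc. Il1r2, a decoy receptor for interleukin 1, was clearly present in 24 of 28 and 11 of 51. Clec4e, a C-type lectin, was less exclusive. It was clearly present in 22 of 28 cells of cluster 11 (median 103.9, mean 201.4 ± 248.9) and in 12 of 51 of cluster 6 (mean 23.4).

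**Figure D1:**
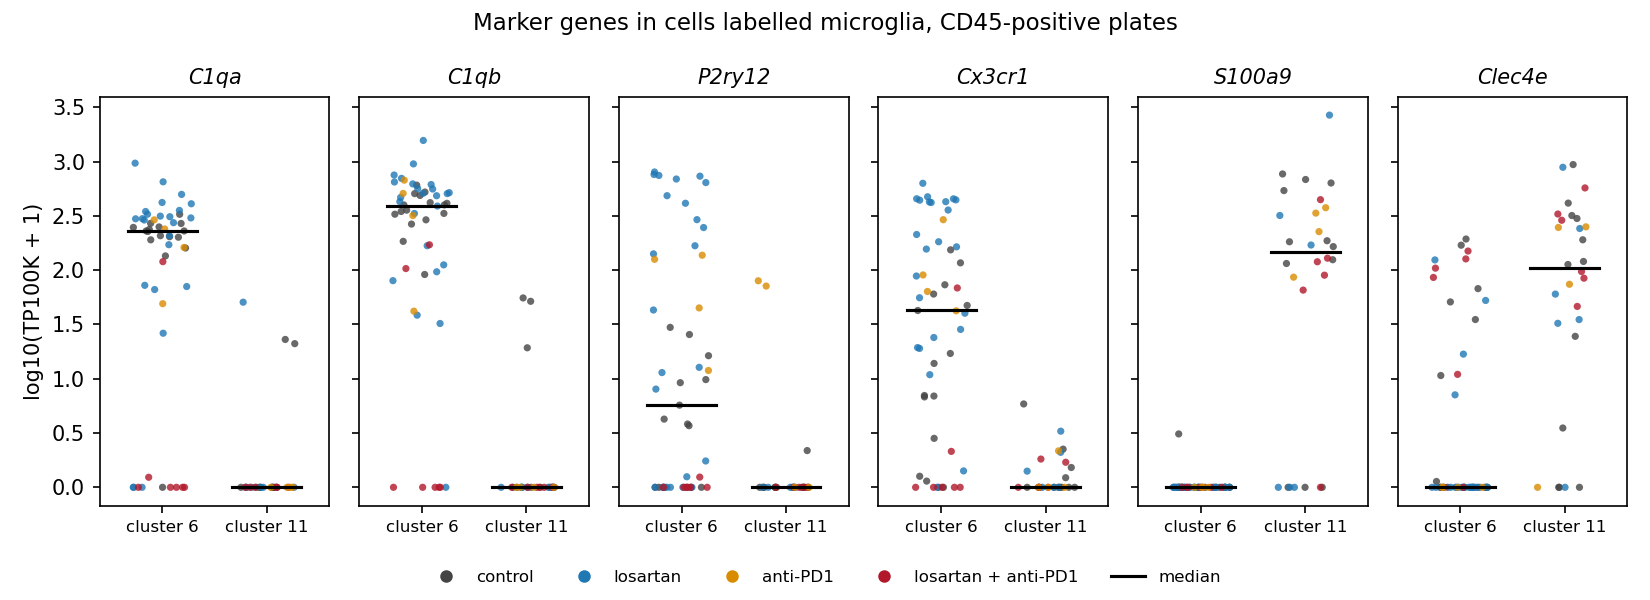
Levels of the marker genes in each of the 79 cells, as log10(TP100K + 1), with cluster 6 and cluster 11 side by side, treatments by colour and bars at the medians. The C1q genes, P2ry12 and Cx3cr1 are high in many of the 51 cells of cluster 6 and mostly at 0 in cluster 11, whereas S100a9 is at 0 in 50 cells of cluster 6 and clearly present in 21 of 28 cells of cluster 11.

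Genes were compared between the clusters by the log2 ratio of mean TP100K, with 1 added to each mean, for every gene detected (above 0) in 25% or more of the cells in one or the other cluster. A ratio of 1 or more in size is called past the fold. The clusters were made from these same genes, so the ratios describe the clusters and test nothing. Of 6351 genes, 881 (13.9%) were past the fold towards cluster 11 and 2418 (38.1%) towards cluster 6. The median of all genes was −0.51. With cells scaled by their 75th percentile in place of their total, the split was 306 and 3707 genes and the median of all genes −1.27, a shift to be read with every ratio here.

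Of the 15 microglia genes on the list, 14 were kept by the filter and had a median log2 ratio of −5.17, and 10 of the 15 had no count in any cell of cluster 11. A gene at 0 in one cluster is kept only through the cluster where it is high, so that the 14 lay past the fold towards cluster 6 follows in part from the filter, for this list and the others. For a gene with no count, the level was bounded by 3 counts over the cluster, all placed in its shallowest cell, which covers counting error only. By that bound Tmem119 was at least 360-fold lower. Gpr34, a receptor for lysophosphatidylserine, also had no count in cluster 11. With bounds, the median over the genes kept was −6.00. Without the losartan plate the median was −2.82. Of the 18 genes shared by microglia and macrophages, 17 were past the fold towards cluster 6 (median −4.51), C1qc the lowest at −6.50. Mpeg1, the pore protein perforin-2, was the exception at −0.46, with means of 59.6 and 43.2. All 8 class II MHC genes were lower in cluster 11 (median −5.48). H2-Ab1 had means of 721.3 in cluster 6 and 5.03 in cluster 11, and Cd74, the invariant chain, 747.1 and 9.89.

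Of the 21 neutrophil genes on the list, 18 were kept, 5 of them at 0 in every cell of cluster 6, and their median was 5.21, or 5.41 with bounds. The 18 lay past the fold towards cluster 11, and 7 of the 21 had no count in any cell of cluster 6. Mmp9, a gelatinase, was at least 2663.6-fold higher, G0s2 at least 1764.0-fold and Retnlg at least 1557.8-fold. By the ratio of means, the top 10 genes were S100a9 (8.18), S100a8 (7.66), Mmp9, Lcn2, Hdc (7.26), Ptgs2 (7.11), G0s2, Retnlg, Asprv1 and H2-Q10 (5.96). The 10 genes at the other end were H2-Ab1 (−6.91), Hspa1a (−6.81), Tmem119, C1qc, Cx3cr1 (−6.46), Cxcl16 (−6.29), Cd74, C1qb, Gpr34 and Pld4 (−5.93). Hspa1a, H2-Q10, Stfa2l1, Mrgpra2a and Mrgpra2b have close copies in the genome, and how reads were split between copies is uncertain.

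Of 19 inflammatory genes kept, 17 were past the fold towards cluster 11 and Sod2 towards cluster 6 (median 2.77). Cxcl2, a ligand of CXCR2, had a median of 481.4 TP100K and a mean of 931.7 ± 1263 in cluster 11, where 20 of 28 cells carried it clearly, against 9 of 51 and a mean of 18.2 in cluster 6. Il1b was clearly present in 24 of 28 cells (median 1706, mean 2031 ± 1728) and in 25 of 51 (median 9.65, mean 148.9). Ptgs2, the inducible cyclooxygenase, had means of 329.8 and 1.40. Nfkbia, which restrains NF-κB, was clearly present in 27 of 28 cells, with means of 691.6 and 51. Of 24 interferon-response genes, 10 were past the fold towards cluster 6 and 3 towards cluster 11, led by Rsad2 at 3.59. These counts are near the 38.1% and 13.9% of all genes, and their median of −0.57 is near the −0.51 of all genes. It was 0.48 without the control plate.

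Genes of classical monocytes did not run in 1 direction. Of 7 kept, 4 were past the fold towards cluster 6 and 2 towards cluster 11 (median −2.84, and −1.92 without the losartan+anti-PD1 plate). Ccr2, which brings monocytes out of bone marrow, was clearly present in 0 of 28 cells of cluster 11, and Ly6c2 in 2. Ms4a4c had no cell at 10 TP100K there. Mgst1 (2.16) and Ifitm6 (1.73) lay on the other side, clearly present in 9 and 8 of 28 cells. The summed level of 8 genes of non-classical monocytes had a median of 74.6 TP100K in cluster 11 (highest 1416) and 0 in cluster 6 (highest 584). No cell of cluster 11 carried more than 2 of these 8 genes clearly. Nr4a1, 1 of them, was clearly present in 18 of the 25 cells without the basophil genes described below. Csf1r, the receptor that maintains the monocyte lineage, was clearly present in 10 of 28 cells of cluster 11 (mean 34.2) and in 49 of 51 of cluster 6 (mean 318.6). Of 10 macrophage genes kept, 6 were past the fold towards cluster 6 and 2 towards cluster 11 (median −1.32). That median was −2.17 without the losartan plate and −0.71 without the losartan+anti-PD1 plate. The sign of the classical monocyte and macrophage medians depended on which cells of cluster 6 entered. Against its 18 microglia-gene cells alone (defined with the spread of cluster 6), the medians were 0.94 for macrophage genes and 3.85 for classical monocyte genes. Those 18 cells were chosen by a score that subtracts the macrophage list, so the sign for macrophage genes follows in part from that choice.

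Cell by cell, the share of listed neutrophil genes above 0 was higher than the shares of the microglia and classical monocyte lists in 26 of 28 cells of cluster 11. It was also higher than those of the macrophage and shared phagocyte lists in 24 of them. Against the microglia and classical monocyte lists it was higher in 1 of 51 cells of cluster 6, and in 0 when only levels of 10 TP100K or more were counted. At that level 22 of the 28 cells carried at least 10 of the 21 neutrophil genes, and 17 carried no microglia gene. In cluster 6 no cell carried more than 5 neutrophil genes. Of the lists compared, the neutrophil list thus led in nearly every cell of cluster 11 and in nearly none of cluster 6. The list of basophil and mast cell genes was not among them. A cell with 4 of its 7 genes above 0, and 5 of the 21 neutrophil genes, is counted in the 26. The comparison also did not ask whether cells of cluster 6 carried microglia or macrophage genes, which is described with the spread of that cluster.

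**Figure D2:**
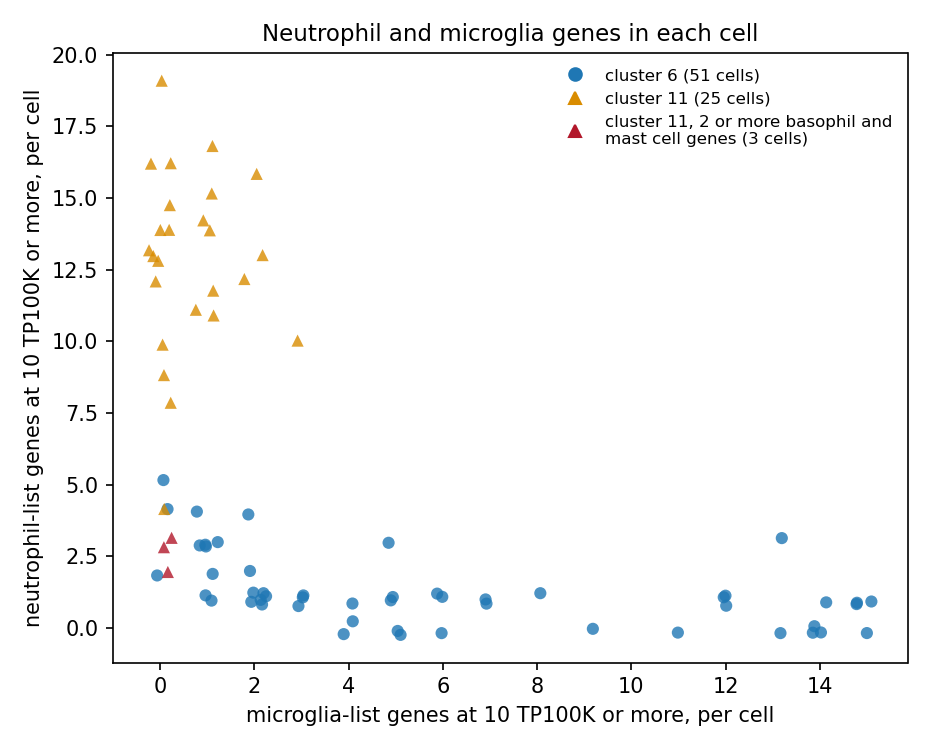
Number of the 21 neutrophil genes against the number of the 15 microglia genes at 10 TP100K or more, each point 1 of the 79 cells, with small random shifts so that points do not hide each other. Cells of cluster 11 have 2 to 19 neutrophil genes and at most 3 microglia genes, and cells of cluster 6 at most 5 neutrophil genes and 0 to 15 microglia genes. The 3 cells of cluster 11 with 2 or more basophil and mast cell genes have their own colour.

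The cells labelled myeloid on the same plates were a further reference. They carried dendritic cell genes, Flt3 clearly in 49 of 73. Against them, too, all 18 neutrophil genes kept were past the fold towards cluster 11 (median 6.16), where 13.3% of all genes were, and class II MHC genes were lower in cluster 11 (median −6.35). Rank correlation of mean profiles over 10713 genes, a description across genes within shared plates, was 0.54 between cluster 11 and the macrophage-gene cells of cluster 6. It was 0.40 with the microglia-gene cells, 0.53 with the myeloid cells and 0.45 with NK cells. Depth and the number of genes differ between these groups, and their part in the order was not tested.

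Cluster 11 was not uniform. In 3 of its cells, all on the control plate, genes of basophils and mast cells took the place of most neutrophil genes. Cd200r3, an activating receptor of basophils, stood at 309.8, 100.2 and 155.3 TP100K in them and at 0 in the other 25 cells. Mcpt8, a basophil protease, was present in a pair of them, at up to 452.4, and at 0 in the third. The transcription factor gene Gata2 was above 0 in all 3 and in no other cell of the cluster. S100a8, S100a9, Il1r2, Clec4e and Il1b were at 0 in all 3, while Hdc stood at 552.1, 520.4 and 94.3 and Cxcr2 at 382.1, 89.9 and 73.6. Their totals ran from 155861 to 886961. Of the other 25 cells, all carried Csf3r clearly, from 31.3 to 888.3, and 21 carried S100a9. These 3 cells were singled out after their values were seen.

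A further cell, on the losartan plate, carried genes of the secondary granules that neutrophil precursors make in bone marrow. Ngp stood at 6253 TP100K, Ltf (lactoferrin) at 5051, Lcn2 at 3517 and Camp (cathelicidin) at 690.2. No other cell of cluster 11 carried Ltf or Camp, and Lcn2 was clearly present in 12 of the 25 cells without basophil genes. The cell also had the highest S100a9 of the cluster, 2676, and 2946 genes above 0, the most in the cluster.

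Genes of both clusters met in few cells. A C1q chain gene and S100a8 or S100a9 were above 0 together in 6 cells of cluster 11 and 1 of cluster 6. On the anti-PD1 plate, all 4 cells of cluster 11 carried at least 1 microglia gene clearly, with summed levels of 71.5 to 425.8 TP100K. The ranges on the other plates were 0 to 119.2 (control), 0 to 23.3 (losartan) and 0 to 97.7 (losartan+anti-PD1). P2ry12 was above 0 in 2 of the 4 cells. Sorting gated singlets, no doublet caller was run, and RNA carried between wells and mixed wells were not tested.

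By plate, cluster 6 was 16 of 70 control cells (22.9%), 24 of 71 losartan cells (33.8%), 4 of 26 anti-PD1 cells (15.4%) and 7 of 73 losartan+anti-PD1 cells (9.59%). Cluster 11 was 12 (17.1%), 6 (8.45%), 4 (15.4%) and 6 (8.22%) of the same cells. These shares depend on the other cells of a plate. In the same order of plates, cells labelled T, NK or B were 24.3, 9.86, 57.7 and 67.1%. Of the cells labelled microglia alone, cluster 6 was 57.1, 80, 50 and 53.8%. The cells of cluster 11 carried neutrophil genes on every plate. Their summed level ran from 218.5 to 5653 on the control plate, 1027 to 8537 on losartan, 2280 to 3093 on anti-PD1 and 2122 to 3555 on the combination, so the plates overlapped. The lowest control sums were those of the 3 cells with basophil genes. Without them the control range began at 1918, and the plates overlapped still. Il1b, 1 of the 22 inflammatory genes, ran from 2672 to 5470 in the 6 combination cells and from 0.331 to 2561 in the 6 losartan cells. In the 12 control cells it ran from 0 to 4354, which spanned most of both. The values of 0 were those of the 3 control cells with basophil genes, and the range without them is not given. The summed inflammatory list overlapped, at 5614 to 14967 on the combination and 259.2 to 24636 on losartan. How many of all genes fail to overlap between groups this small was not counted, so the Il1b ranges are a description. Interferon-response genes summed to 353.9 to 2859 on the anti-PD1 plate and 101.1 to 4861 on the combination plate. They summed to 12.2 to 517.5 on control and 0 to 732.4 on losartan. The highest control sum was that of a cell with basophil genes. Rsad2 was above 0 in 2 of 4 anti-PD1, 5 of 6 combination, 2 of 12 control and 1 of 6 losartan cells.

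**Figure D3:**
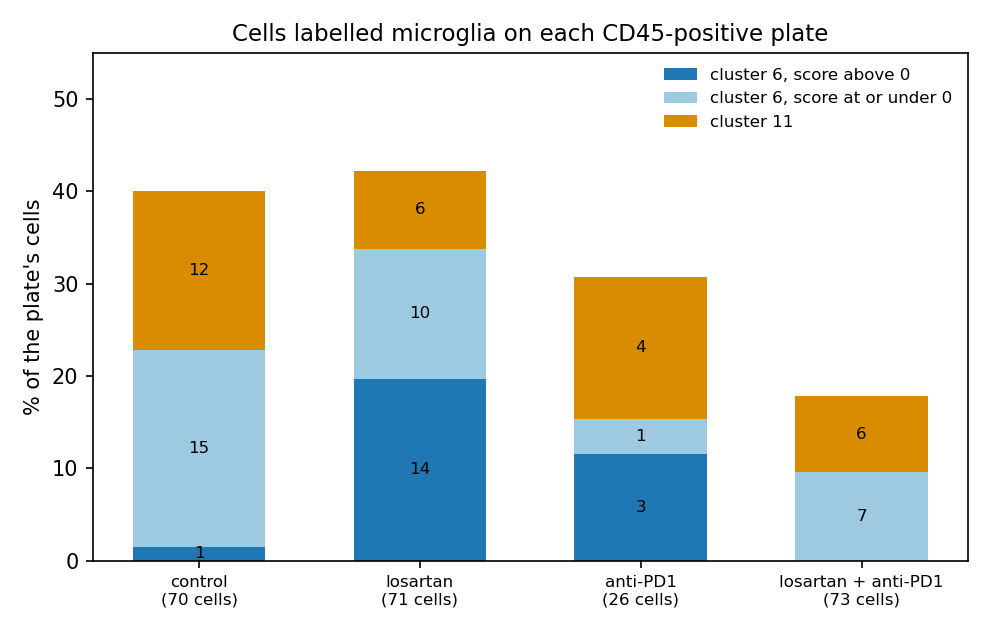
Cells of clusters 6 and 11 as a percentage of the cells on each of the 4 CD45-positive plates, with cell numbers written in the bars and the cells of cluster 6 split by the microglia minus macrophage score described with its spread. Of 24 cells of cluster 6 on the losartan plate, 14 have a score above 0, against 1 of 16 on the control plate and 0 of 7 on the losartan+anti-PD1 plate.

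Within cluster 6, the cells spread from those with microglia genes to those with macrophage and monocyte genes. A score was taken as the mean ln(TP100K + 1) of the 15 microglia genes minus that of the 17 macrophage genes. It ran from −2.61 to 5.04, with a median of −0.76. The widest gap between neighbouring cells, from 0.034 to 1.22, had 34 cells under it and 17 over it. A cut at 0 put 18 of 51 cells (35.3%, exact 95% interval 22.4 to 49.9%, counting error only) above it, and 1 cell lay within 0.25 of the cut. Over the 51 cells the means of the 2 lists ran against each other (Spearman −0.62). Within the cells above 0 the value was −0.50 (n = 18) and within the others 0.19 (n = 33). Over all cells without the losartan plate it was −0.27. Against the number of genes the score had a Spearman correlation of −0.15 over the 51 cells and of 0.38 within the 33 at or under 0, and against the total count −0.14 and 0.21. The mean of the macrophage list stood at 0.41 against the number of genes over the 51 cells, and that of the microglia list at 0.65 within the 33. The part of depth in the spread was not tested.

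The gene groups on either side follow from the score for the microglia and macrophage lists, whose levels are given as a description. P2ry12 was above 0 in 18 of 18 cells above the cut (mean 359.2 TP100K) and in 14 of 33 others (mean 3.77). Tmem119 gave 17 of 18 and 5 of 33, with means of 251.5 and 7.45. Sall1, a transcription factor gene of microglia, and Gpr34 had no count in any of the 33. Tgfbi, an extracellular matrix protein of monocyte-derived macrophages, had means of 68.3 and 412.6, and Ms4a7 1.27 and 20.9. The C1q genes were on both sides. C1qb was clearly present in all 18 cells above the cut (40.9 to 1563, mean 584.1) and above 0 in 27 of 33 others (mean 252.8). C1qa gave 18 of 18 and 24 of 33.

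**Figure D4:**
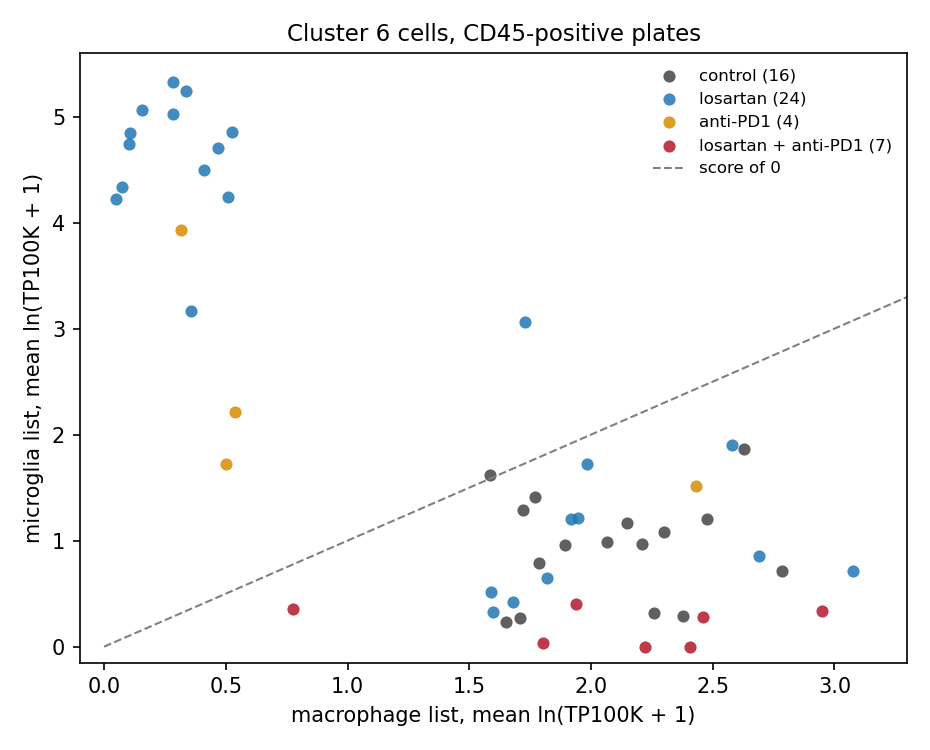
Mean ln(TP100K + 1) of the microglia list against that of the macrophage list, each point 1 of the 51 cells of cluster 6, with the treatment shown by colour and a dashed line at a score of 0. The line puts 33 cells at or under 0 and 18 cells above it, and 14 of the 18 are from the losartan plate. The widest gap in the score has 34 cells under it and 17 over it, since a control cell at 0.034 lies just above the line.

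Genes outside both lists also moved with the score. Of 6950 genes, those of both lists included, 1461 (21%) were past the fold towards the cells above 0 and 1143 (16.4%) towards the others. All 7 classical monocyte genes kept were past the fold towards the cells at or under 0 (median −3.46), and Ly6c2 was above 0 in 19 of those 33 cells (mean 75.6) and in none of 18. Of 8 class II MHC genes, 7 lay past the fold on the same side (median −1.67), as did 21 of 27 interferon-response genes (median −2.58). Il1b was above 0 in 28 of the 33 cells and 1 of the 18, Osm in 23 and 1. Of the 18 genes shared by both cell types, 9 were past the fold towards the cells above 0 (median 1.04). The lysosomal protease Ctsd had means of 1108 in cells above 0 and 230.6 in the others. Trem2, a lipid-sensing receptor, gave 110.5 and 11.3. Over 6092 genes outside the lists, the median rank correlation with the score was −0.01, with 52 genes at 0.6 or more and 54 at −0.6 or less. The 10 highest were Cd81 (0.84), Slco2b1 (0.79), St3gal6, Fscn1, C1qc (0.77), Mlxipl, Bin1, Ptgs1, Plxdc2 and Cst3 (0.73). The 10 lowest were Ifitm3 (−0.82), Pim1, S100a11, Fgr, Gp49a, Cdkn1a, Clec4e (−0.74), Sirpb1b, Slfn2 and LOC100038947. Clec4e, which marks cluster 11, was thus also a gene of the macrophage end of cluster 6.

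The cells at the macrophage end differed from those labelled myeloid. Of 18 shared phagocyte genes, 17 were past the fold towards them (median 3.18), where 7.43% of all genes were, and of 13 macrophage genes 9 (median 1.71). Their class II MHC genes had a median of −0.66 against the myeloid cells. Their mean profile had a rank correlation of 0.80 with the myeloid cells and 0.62 with the microglia end of their own cluster, whose value with the myeloid cells was 0.59.

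The microglia end was found mostly on the losartan plate. The score was above 0 in 14 of 24 losartan cells (58.3%, exact 95% interval 36.6 to 77.9%) and 1 of 16 control cells (6.25%, 0.158 to 30.2%). It was above 0 in 3 of 4 anti-PD1 cells (75%, 19.4 to 99.4%). In the 7 losartan+anti-PD1 cells it was above 0 in none, which, at the limit of 3 counts used here for a count of 0, allows a share of up to 42.9%. Without the losartan plate, 14.8% of cluster 6 lay above 0. The only control cell above 0 stood at 0.034, the highest anti-PD1 cell at 3.62 and the highest losartan cell at 5.04. The intervals cover counting error only and say nothing of the spread between mice.

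Losartan and control cells of cluster 6 (24 and 16) thus differed in makeup. Of 7902 genes, 1627 (20.6%) were past the fold towards losartan and 690 (8.73%) towards control, with a median of 0.21 over all genes. With scaling by the 75th percentile the split was 743 and 1607 and the median −0.23. All 15 microglia genes were past the fold towards losartan (median 4.28, or 5.17 with bounds). Gpr34 (6.99) led, and P2ry12 ran from 0 through a median of 91.1 to 800.2 TP100K on losartan and from 0 through 2.76 to 28.7 on control. Among the 10 highest were Gpr34, Sparc, Siglech (6.16), Fcrls (5.87), Slco2b1, Slc2a5, Plxdc2, P2ry12 (5.17) and Pmp22. Of 15 macrophage genes, 5 were past the fold towards control (median −0.85) and none towards losartan. Of 27 interferon-response genes, 14 were past the fold towards control (median −1.06). Cxcl10, a ligand of CXCR3 that draws T cells, was above 0 in 37.5% of control cells (mean 67.5) and 8.33% of losartan cells (mean 0.724). Of 15 immediate early genes, 10 were past the fold towards losartan (median 1.46), Jun among them with means of 513.6 and 107.5. Of 9 heat shock genes, 4 were (median 0.87, which fell to 0.04 with the other scaling). Of 9 genes called M1-like, 4 were past the fold towards control (median −0.93), and of 5 called M2-like, none was (median −0.40). Genes shared by microglia and macrophages had a median of 0.33, which turned to −0.42 with the other scaling.

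Within the cells at or under 0 (10 on losartan and 15 on control), the microglia and macrophage medians are limited by the score itself, which is built from both lists, and they are a description. This comparison was added after the score had been seen. Of 7792 genes, 1339 (17.2%) were past the fold towards losartan and 816 (10.5%) towards control, with a median of 0.13. Of the 15 microglia genes, 6 were kept, and of these none was past the fold towards losartan and 1 towards control (median 0.46). The macrophage median was 0.14, the class II MHC median 0.13, the M1-like median −0.54 and the M2-like median 0.05. Of interferon-response genes, 1 was past the fold towards losartan and 6 towards control (median −0.23). Of 14 immediate early genes, 6 were past the fold towards losartan (median 0.92). Of 8 classical monocyte genes, 4 were, with a median of 0.71 where it was −0.38 over all cells. Genes shared by microglia and macrophages had a median of −0.56, with 3 of 18 past the fold towards control, and damage-associated genes had −0.83, against −0.30 over all cells. A few genes stayed far apart. Cxcl10 (−4.74) had means of 1.74 and 72, and Cxcl11 (−4.32) 0.881 and 36.7. Osm, a cytokine of the interleukin 6 family, had a highest value of 19.1 on losartan, above 0 in 3 of 10 cells, and a median of 24.9 with a highest value of 336.4 on control, above 0 in 12 of 15 (−3.30). Adamdec1, Slfn4 and Mmp13 were also among the lowest, each above 0 in a minority of control cells. Adamdec1 and Mmp13 had no count in the 10 losartan cells. Among the highest, Creld2 (4.95) rested on few cells, with a median of 0.416 and a highest value of 1782 on losartan.

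**Figure D5:**
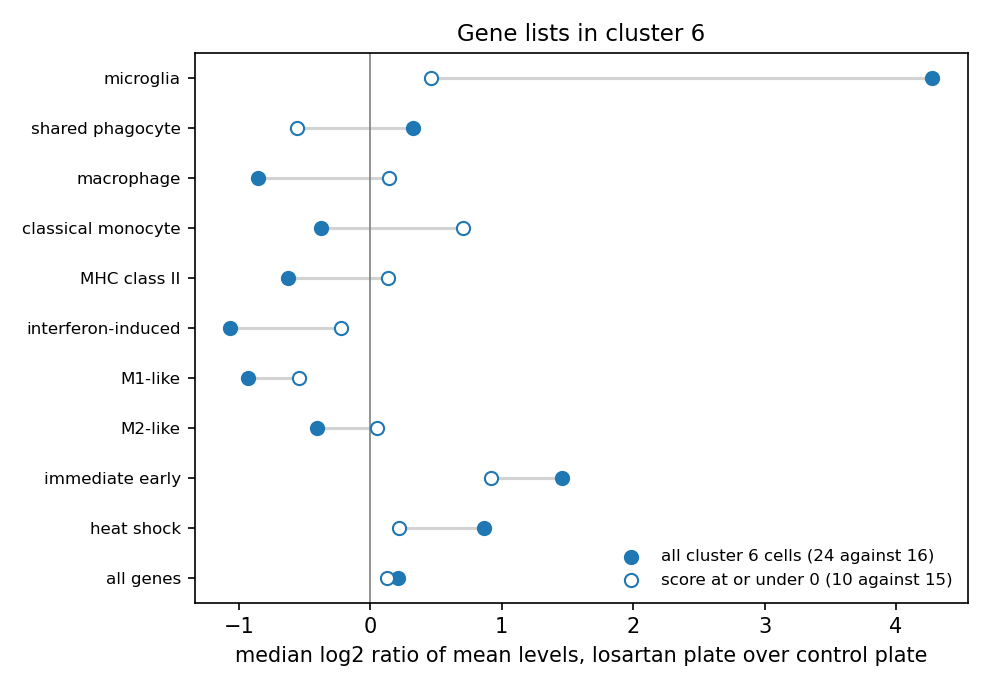
Median log2 ratio of each gene list for losartan over control in cluster 6, for all cells (24 and 16) and for cells with a score at or under 0 (10 and 15). The microglia list, from which the score is made, is at 4.28 over all cells (15 genes kept) and 0.46 at or under 0 (6 kept), and the interferon list at −1.06 and −0.23.

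The 7 cells of cluster 6 on the losartan+anti-PD1 plate had the monocyte genes. Ly6c2 was clearly present in all 7, from 24.9 through a median of 203.8 to 366.3 TP100K. On control it ran from 0 through 0.472 to 293.8 in the 15 cells at or under 0, so the ranges overlapped and the medians lay far apart. All 7 carried Ly6c2, Ccr2 and Plac8 clearly together, against 3 of 15 control, 1 of 10 losartan and 0 of 1 anti-PD1 cells. All 3 C1q chain genes were clearly present together in 1 of 7, against 14 of 15, 7 of 10 and 1 of 1. The summed level of the 10 classical monocyte genes ran from 411.4 to 1127 in the 7 cells and reached 977.2 on control, so the plates overlapped.

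Against the 15 control cells, 1072 of 7654 genes (14%) were past the fold towards losartan+anti-PD1 and 2150 (28.1%) towards control, with a median of −0.27. Of 10 classical monocyte genes, 8 were past the fold towards losartan+anti-PD1 (median 2.02). Of 28 interferon-response genes, 11 were and 3 lay the other way (median 0.60). Of 18 shared phagocyte genes, 13 were past the fold towards control (median −1.95), as were all 6 microglia genes kept (median −2.44). Trem2 was above 0 in 1 of 7 cells, at 0.933, and in 13 of 15 control cells. Gpnmb and Spp1, genes of lipid-laden macrophages, had no count in the 7 cells and were above 0 in 6 and 7 of the 15. Of the 10 highest genes, Ccl5 (5.28) was above 0 in 57.1% of the cells and Ifit1 (4.79) in 42.9%. Gzmb (6.19) rested on a highest value of 561.6 with a median of 0. The class II MHC median was −0.49. This comparison shares its control cells with the losartan comparison.

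The 4 anti-PD1 cells of cluster 6 had microglia genes summing to 319.5 to 2434 TP100K and classical monocyte genes summing to 0 to 8.78. Their interferon-response genes summed to 106.5 to 167.4, against 211.5 to 2105 in the 16 control cells. These ranges did not overlap, but how many of all genes or lists fail to overlap between groups this small was not counted. By ratio to control, 24 of 27 interferon-response genes were past the fold downwards (median −3.06), where 30.3% of all genes were. Of the 4 cells 3 had a score above 0, against 1 of the 16, and over cluster 6 the interferon list ran against the score (Spearman −0.66). The part of this makeup in the ratio was not tested. Apoe, which carries lipids, stood between 1540 and 13170 with a median of 7105, against medians of 1088 on control, 53.2 on losartan and 172.4 on the combination. With 4 cells, these values describe those cells.

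On the CD3-positive plates, whose values are TPM, scaled here to 100000 per cell and not pooled with the rest, 10 cells were labelled microglia: 2 control, 7 losartan and 1 losartan+anti-PD1. Of these, 9 were in cluster 6 and 1 in cluster 11. C1qb was at 10 per 100000 of summed TPM or more in 9 of the 10, against 12.8% of 327 T cells of the same plates above 0, and Csf1r in 9. S100a9 was at 0 in all 10. The 1 cell of cluster 11 nonetheless carried 7 of the 21 neutrophil genes at 10 per 100000 or more, with a summed level of 2180. At least 1 Cd3 gene was at that level in 5 of the 10, against 0 of the 79 cells on the CD45-positive plates at 10 TP100K. The score was above 0 in 3 of the 7 losartan cells of cluster 6 and in 0 of the 2 control cells, over a range of −2.01 to 4.44.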

How the data were processed

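Per the labels and the study's methods, live singlets were gated by FACS into 96-well plates, amplified by Smart-seq2, and aligned with Bowtie to mm10. The authors' filter kept cells in which 1000 to 8000 genes were found and no fewer than 20 housekeeping genes, and clusters were made by the authors at resolution 0.4 on 20 principal components. For CD45-positive plates the authors deposited expected counts from RSEM (1.2.8 in the submitters' processing notes), and 72.4% of the members' values above 0 were exactly whole as deposited, with no tolerance. For CD3-positive plates the authors deposited TPM, scaled here to 100000 per cell. The tables also held 500 columns of cells not used here.

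Cells were chosen by the deposited label and cluster. Each cell was scaled to 100000 (TP100K). Ratios were log2((mean + 1)/(mean + 1)) among genes above 0 in at least 25% of either group, past the fold at 1. A pseudocount of 1 understates the ratio of low genes. The score was the difference of 2 list means of ln(TP100K + 1), cut at 0. Thinning used 80000 counts and seed 7. Members, lists and comparisons were chosen with earlier results of these data known. Named genes were the markers, list members and the 10 highest and 10 lowest of each ranking, of which 1 gene is not reported here. Of 296 listed symbols, 293 in 25 lists were found and 3 were not analysed here. Expected counts were used unrounded, since no count test was run. On simulated data, 100% of 100 raised genes passed the fold in the comparison of clusters, and 99% of 100 lowered ones. The changes were set larger than the fold and placed only in genes of higher mean level. The run therefore checks the calculation and says nothing of low genes or of genes present in few cells. Python 3.11.15, numpy 2.4.6, pandas 2.3.3, scipy 1.17.1 and matplotlib 3.10.9 were used. Alternatives were another pseudocount, filter, scaling or averaging, a range of genes per cell, thinning, and leaving out each plate. Cells from 41186 to 1808024 counts give unequal precision, and intervals are exact (Clopper-Pearson, 95%) and cover counting error only.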

Additional observations from a re-analysis of the deposited data

Results flagged for a closer look

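In each cluster and plate with 4 to 10 cells, 9 measures were examined for a cell far from the others, which made 45 groups of values. Of these, 10 had such a cell. Chance flags about 1 in 20 groups of independent values of normal spread, but these measures are skewed and related to each other and 5 of the 10 come from 1 cell, so the count is not set against that rate. In cluster 6 on the anti-PD1 plate, 1 of 4 cells had microglia genes summing to 2434 TP100K, against 319.5 to 573.7 in the others. In the same 4 cells, classical monocyte genes summed to 8.78 in 1 cell and to at most 0.570 in the others.

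Of the 6 cells of cluster 11 on the losartan plate, the cell with secondary granule genes stood apart in 5 measures. Its total was 605013.5 counts, against 242186.4 in the next cell, and it had 2946 genes above 0 against 1927. Its neutrophil genes summed to 8537 against 3390, its classical monocyte genes to 2232 against 316.9, and its microglia genes to 23.3 against 2.29. Another cell on that plate had class II MHC genes summing to 293.4, against 49.2 in the next.

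In cluster 11 on the losartan+anti-PD1 plate, 1 of 6 cells had interferon-response genes summing to 4861 TP100K, against 1508 in the next. On the anti-PD1 plate, 1 of 4 cells had class II MHC genes summing to 81.16, against 1.09 in the next.

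Outside the CD45-positive plates, 3 cells of cluster 6 on the CD3-positive losartan plate had a score above 0, against 0 of 2 on the CD3-positive control plate. The unit there was TPM scaled to 100000 per cell, and the difference was not tested.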

How the results depend on the processing

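No paired analysis was possible because the results come from no test, each treatment being 1 plate. For the 31 results, 346 values were computed under the alternatives. Shares of genes and counts of cells were called moved past 1.5 times, and log2 medians past 0.58. Correlations had a tolerance of their own, and percentages of cells were called moved outside their exact interval. Of the values that answer a comparison, 44 moved, 2 reversed and the rest, the larger number, did neither. Of those for other results, 34 moved and none was counted as reversed. A log2 median could count as reversed only if its main value was at least 1 in size. Sign changes of smaller medians, which occurred for losartan against control, were counted as moved or as neither. For cluster 11 against cluster 6, the median over all genes was −1.27 with scaling by the 75th percentile. The share of genes past the fold towards cluster 11 was 5.97% with a pseudocount of 10, 4.82% with that scaling and 5.12% by the difference of mean ln(TP100K + 1). The share towards cluster 6 was 6.33% with a pseudocount of 10 and 58.4% with that scaling. With no filter, which keeps 14236 genes, the counts were 1471 and 3824. With 2000 to 6000 genes per cell, which leaves 4 cells of cluster 11 and keeps 7813 genes, 1440 genes were higher in cluster 11. The microglia median was −7.37 with a pseudocount of 0.1, −2.50 with 10, −2.24 by mean ln, −5.76 with 2000 to 6000 genes and −2.82 without the losartan plate. It was −6.54 against the cells of cluster 6 with a score above 0 and −1.42 against the others, both added after seeing the data. The score is built from the microglia and macrophage lists, so these values follow in part from it. The neutrophil median was 6.52 and 3.44 with the 2 pseudocounts, 4.24 with the other scaling, 4.19 by mean ln, 4.27 with 2000 to 6000 genes and 6.67 against the cells with a score above 0. The classical monocyte median was −1.69 with a pseudocount of 10, −2.13 with a 10% filter and with none, −3.48 with the other scaling, −1.43 by mean ln, −1.32 with 2000 to 6000 genes, −1.92 without the losartan+anti-PD1 plate and −3.46 against the cells at or under 0. The macrophage median was −2.63 with the other scaling, −2.17 without the losartan plate and −0.71 without the losartan+anti-PD1 plate. Only against the cells with a score above 0 did a median of these lists change sign, to 3.85 for classical monocyte and 0.94 for macrophage genes. Which cells of cluster 6 entered was the only change there, and the score that chose them includes the macrophage list.

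For losartan against control, the shares of the 7902 genes past the fold, higher and lower, were 2.33% and 0.785% with a pseudocount of 10 and 9.40% and 20.3% with the other scaling. The share higher was 5.10% by mean ln, and the share lower 14.03% with a pseudocount of 0.1. The microglia median was 5.89 and 2.46 with the 2 pseudocounts, 3.09 by mean ln and 0.46 within cells at or under 0. The macrophage median was −1.46 by mean ln and 0.14 within those cells, where the interferon median was −0.23. Without the losartan plate, the rank correlation of the list means was −0.27 and 14.8% of cluster 6 lay above 0. Leaving out the 3 cells with basophil genes moved no median of the lists named here past the tolerance. The cause of the other shifts was not tested. Depth limits the low genes, since in a cell of 41186 counts 1 count is worth over 1 TP100K, and 4 cells on the anti-PD1 plate limit any value there.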

Other observations

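Genes of the Y chromosome (Ddx3y, Uty, Kdm5d or Eif2s3y) reached 1 TP100K in 52 of the 79 mouse cells on the CD45-positive plates. By plate they did so in 17 of 28 control, 21 of 30 losartan, 5 of 8 anti-PD1 and 9 of 13 losartan+anti-PD1 cells. Xist, the RNA of the silenced X chromosome, reached that level in 2 cells, 1 on the control plate and 1 on the losartan+anti-PD1 plate, and no cell had both. The mice of the study were of both sexes.

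Mbp, a myelin gene of oligodendrocytes, was above 0 in 11 of 28 cells of cluster 11 (mean 60.2 TP100K) and had a mean of 3.43 in cluster 6. No gene of the endothelial and astrocyte lists was above 0 in a cell of cluster 11.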
